A study of Mus musculus with 4 samples.

Results

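The histone cluster genes of the mouse encode the core histones H2A, H2B, H3 and H4, around which DNA is wound, and the linker histone H1, which binds where DNA enters and leaves the nucleosome. They were taken as all gene symbols beginning with Hist1h, Hist2h, Hist3h or Hist4h that had at least 20 unique molecular identifiers (UMIs, each standing for 1 captured RNA molecule) over 4 libraries. Of 67 such symbols 62 passed, among 32285 genes listed and 20353 with at least 20 UMIs. They comprised 6 H1, 16 H2A, 16 H2B, 12 H3 and 12 H4 genes. The symbols left out were Hist1h2bq (9 UMIs), Hist2h2aa2 (7), Hist1h4m (4), Hist1h2aa (1) and Hist1h2ba (0), and the lowest that passed were Hist1h1t (56 UMIs) and Hist1h4f (83).

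The RNA was from embryoid bodies, spheres of differentiating cells grown from R1, a line of mouse embryonic stem cells. There were 4 groups with 1 droplet library each: 8 days of normoxia (Nx8), 8 days with hypoxia for the last 16 h (Hx8), 10 days of normoxia (Nx10), and 10 days with hypoxia for the last 48 h (Hx10). The oxygen level, and how many cultures went into a library, were not given in the sources used here. Since each condition is 1 library, no difference has a replicate check and none was tested, and what belongs to the library cannot be told apart from the condition. All intervals are 95% intervals for counting error alone.

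Most cluster genes are replication-dependent. They are transcribed in S phase, when new DNA has to be packed, and their RNA carries no poly(A) tail. It ends just past a short hairpin, the stem-loop, which is bound by the stem-loop binding protein (Slbp) and is cut with the help of the U7 small nuclear RNA. In cells that have left the cycle or differentiate, some of these genes are known also to give longer, polyadenylated RNA from a signal further downstream. The libraries were primed on poly(A), so a level below is the level of RNA that could be captured in that way, and not that of all histone RNA.

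The stem-loop was looked for in the longest annotated protein-coding transcript of each gene (GENCODE M21, GRCm38) as 6 bases beginning with GG, a loop of 4 bases, and the same 6 bases inverted. It was found in 43 of the 62 genes. The form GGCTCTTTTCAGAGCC stood in 24 of them. H1, H2A, H2B and H3 genes shared the same 6 bases on the 5′ side in all 32 where a stem-loop was found, while the 11 H4 genes had 2 other forms, 9 and 2 genes. These windows show the stem-loop in capitals with up to 5 bases on each side, for the highest-level gene of 4 types that has one and for Hist1h4i, the gene of largest day 10 hypoxia ratio on the log2(CPM + 0.1) scale.

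Hist1h1c: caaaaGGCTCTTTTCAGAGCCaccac
Hist1h2ap: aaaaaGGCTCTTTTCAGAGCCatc
Hist1h2be: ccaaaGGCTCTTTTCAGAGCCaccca
Hist1h3e: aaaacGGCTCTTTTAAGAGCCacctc
Hist1h4i: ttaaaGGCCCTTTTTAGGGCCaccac

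The annotated transcript of Hist1h2ap stops 3 bases past the stem-loop, that of Hist1h4i runs on for 330 bases and that of Hist1h1c for 840. In 16 of the 62 genes an annotated transcript held the poly(A) signal AATAAA or its variant ATTAAA in its last 50 bases. These 16 are called genes with a signal near the end. In 13 others the annotated transcript stops at the stop codon, so nothing can be said of what follows. The windows of 30 bases below hold the signal in capitals for 6 of the 16 genes, to which the results return.

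Hist1h4i: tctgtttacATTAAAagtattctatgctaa
Hist2h4: taaAATAAAatcttaaaaacaacaaaaaga
Hist4h4: agaagatgctagaggagatgaAATAAAtac
Hist1h1c: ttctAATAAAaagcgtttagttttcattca
Hist3h2a: cccAATAAAataagagtacgtgtataacat
Hist1h2ae: tccAATAAAtgggtcaatttttttcagatt

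On GRCm38 the 62 genes lie in 4 clusters, 50 on chromosome 13 (Hist1), 9 on chromosome 3 (Hist2), 2 on chromosome 11 (Hist3) and 1 on chromosome 6 (Hist4). Hist1h4i (ENSMUSG00000060639) is at chr13:22040636-22041362 on the minus strand, Hist1h1b (ENSMUSG00000058773) at chr13:21779883-21780625 on the minus strand, Hist1h1c (ENSMUSG00000036181) at chr13:23738808-23740367 on the plus strand and Hist1h2ap (ENSMUSG00000094777) at chr13:21833026-21833507 on the minus strand. Many differ little in sequence. The 12 H4 genes encode 1 protein, the 12 H3 genes 3, the 16 H2A genes 8, the 16 H2B genes 11 and the 6 H1 genes 6. The share of 60-base windows of a transcript that occur in no other gene was used as a measure of how far reads can be told apart. It was 100% in Hist1h1b, 92.4% in Hist1h1c, 73.7% in Hist1h4i and 71.9% in Hist1h2bc, but 7.09% in Hist1h2ap, 0.167% in Hist1h2br and 0% in Hist2h3c1. Values of genes with low shares are uncertain, since reads could be split among copies or dropped. The spans of Hist1h2be and Hist1h1e overlap in part on the same strand, and Hist3h2a overlaps Trim17, so their reads cannot be fully told apart.

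The libraries held 84938732 (Nx8), 78062472 (Hx8), 62614780 (Nx10) and 76831735 (Hx10) UMIs in 3168, 3345, 2679 and 4616 cells. Any pair of libraries shared 1 to 5 cell barcodes. Histone cluster genes took 0.120%, 0.104%, 0.112% and 0.142% of UMIs. Hx10 stands apart: its cells had a median of 12802 UMIs (18839 to 23057.5 in the others), 1.11% of mitochondrial UMIs (2.01% to 4.05%) and 29.4% of ribosomal protein UMIs (18.4% to 20.7%), and its TMM scaling factor was 0.767 (1.01 to 1.18). Ratios of Hx10 over the whole library therefore also carry the value with TMM scaling where it changes a direction. Within S phase strata and cell classes TMM scaling was not applied, so signs of day 10 ratios near 0 are not settled there. Mesenchymal markers summed to between 10670.1 and 12646 CPM (a gene's UMIs divided by all UMIs of its library, times 1000000) and pluripotency markers to between 42.2 and 62.5. Markers of the stem cell state were thus low in all 4 libraries beside those of mesenchymal cells.

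A few genes gave most histone UMIs. Since 1 molecule gives 1 UMI whatever its length, levels are set side by side without a length correction. The highest by mean over the 4 libraries was Hist1h2ap, an H2A gene, with 301 CPM in Nx8, 271 in Hx8, 172 in Nx10 and 145 in Hx10. On the CPM scale its own level was highest in the day 8 libraries and lowest in Hx10. Hist1h1b lay above it in Nx10, and Hist1h2bc, Hist1h1c and Hist1h4i did in Hx10. The H1.5 gene Hist1h1b followed with 204, 116, 253 and 25.8 CPM in the same order, so Hx10 stood well below the other libraries. The H1.2 gene Hist1h1c went the other way, with 84.3, 117, 113 and 270.3 CPM, Hx10 being highest. The H2B gene Hist1h2bc had 54.9, 88.2, 75.5 and 323 CPM and the H1.4 gene Hist1h1e 118, 78.4, 111 and 38.4. The next H2B genes were far lower, Hist1h2be with 10.6, 8.63, 8.83 and 16.2 CPM and Hist2h2bb with 10.1, 5.76, 7.63 and 7.38. Summed over all 62 genes the level was 1202 CPM (Poisson interval 1195 to 1210) in Nx8, 1038 (1031 to 1045) in Hx8, 1121 (1113 to 1129) in Nx10 and 1415 (1407 to 1424) in Hx10. The highest total as a share of UMIs thus came from the hypoxic library in which Hist1h1b was lowest. Per cell, histone UMIs numbered 32.2 in Nx8, 24.2 in Hx8, 26.2 in Nx10 and 23.6 in Hx10. By that count Hx10 was lowest, and its cells also had the lowest median of all UMIs.

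**Figure D1:**
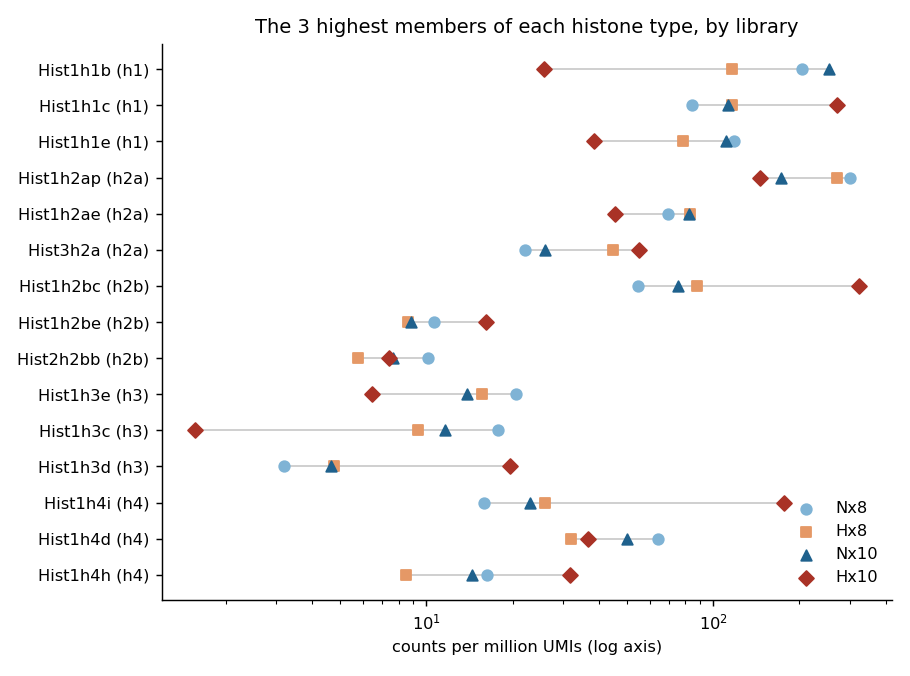
Level in CPM (log axis) of the 3 histone cluster genes of highest mean in each histone type, 1 symbol per library, with a grey line from the lowest to the highest of the 4. Hx10 is the highest library for Hist1h4i (176 CPM) and Hist1h2bc (323 CPM) and the lowest for Hist1h1b (25.8 CPM) and Hist1h3c (1.56 CPM).

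The comparison of Hx8 with Nx8 asks how levels differed after 16 h of hypoxia. A log2 ratio is that of CPM + 0.1, and a gene is called higher or lower where it is past 1.5-fold. Of the 62 genes 6 were higher, where 5.52% of all 20353 genes were, and 28 were lower, where 24.5% of all genes were. The median log2 ratio of the histone genes was -0.55 and that of all genes -0.22. With TMM scaling 9 were higher and 14 lower, and the median was -0.35, beside -0.01 for all genes. The shares of all genes past 1.5-fold were not taken with TMM scaling. Counts with it, here and below, therefore cannot be set against the shares given.

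Of the 6 higher genes, Hist3h2a, an H2A gene of the small chromosome 11 cluster, had 22.0 CPM in Nx8 and 44.6 in Hx8, 2.03-fold (1.91 to 2.14). The H2A gene Hist1h2ac had 3.30 and 6.20 CPM, 1.88-fold (1.62 to 2.19). Hist1h4i, an H4 gene, had 15.8 and 25.8 CPM, 1.63-fold (1.52 to 1.75), and Hist1h2bc 1.61-fold (1.55 to 1.67). The remaining 2 were low H3 genes, Hist2h3c2 (0.530 and 1.19 CPM) and Hist2h3c1 (1.15 and 1.81 CPM), of which the latter has no window of its own. Among the lower genes, the H3 gene Hist1h3a had 6.75 and 2.18 CPM, 0.323-fold (0.270 to 0.384). The H2A gene Hist1h2af had 4.57 and 1.68 CPM, 0.367-fold (0.299 to 0.449). The H1.1 gene Hist1h1a had 27.5 and 12.3 CPM, 0.447-fold (0.414 to 0.482), and the H4 gene Hist1h4d 64.2 and 31.9 CPM, 0.497-fold (0.473 to 0.521). The H2A gene Hist1h2ag had a log2 ratio of -1.30 and Hist1h1b one of -0.82.

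By type, the summed level of H1 genes was 462 CPM in Nx8 and 344 in Hx8 (log2 ratio -0.42), of H3 genes 67.0 and 45.2 (-0.57) and of H4 genes 123 and 84.7 (-0.54). H2B genes summed to 113 and 132 CPM (0.23). H2A genes summed to 438 and 432 CPM, a log2 ratio of -0.02 that was 0.21 with TMM scaling. The sum of H2A follows Hist1h2ap, which made up 68.7% of it in Nx8 and had a log2 ratio of -0.15, or 0.08 with TMM scaling. Of the other 2 highest H2A genes, Hist1h2ae had 69.4 and 83.3 CPM (0.26).

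The comparison of Hx10 with Nx10, after 48 h of hypoxia, gave larger ratios in both directions. Of the 62 genes 24 were higher, where 12.0% of all genes were, and 24 were lower, where 46.2% of all genes were. Ratios ranged from -3.72 to 2.93 on the log2 scale, with a median of -0.13, beside -0.50 for all genes. The median of the histone genes was 0.36 with TMM scaling, 0.29 with every cell thinned to 5000 UMIs and 0.01 with mitochondrial, ribosomal protein and Malat1 UMIs left out of the total, so its sign is not settled. Between Nx10 and Hx10 the summed S phase list went from 1664 to 550.5 CPM, macrophage markers from 602 to 103 CPM (13 of 13 lower) and erythroid markers from 570.2 to 37.8 CPM (10 of 12 lower). The part of each of these in the histone ratios was not tested.

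Among genes averaging 1 CPM or more, the 5 highest ratios held 3 H4 genes. Hist1h4i had 23.0 CPM (21.8 to 24.2) in Nx10 and 176 (173 to 179) in Hx10, 7.65-fold (7.25 to 8.08). It was at 15.8 and 25.8 CPM on day 8, so Hx10 was far above the other 3 libraries. Hist2h4, an H4 gene of chromosome 3, had 1.66 and 13.1 CPM, 7.90-fold (6.45 to 9.76), and Hist1h4j 0.463 and 2.68 CPM, 5.79-fold (3.91 to 8.86). Hist1h2ac had 6.77 and 46.7 CPM, 6.90-fold (6.23 to 7.64). Hist1h2br, an H2B gene with nearly no window of its own, had 3.31 and 16.3 CPM, 4.94-fold (4.26 to 5.75). Hist1h2bc had 75.5 and 323 CPM, 4.28-fold (4.15 to 4.42), the largest upward difference in CPM among the 62 genes. The H3 gene Hist1h3d had 4.63 and 19.6 CPM (log2 ratio 2.06), the isolated H4 gene Hist4h4 2.27 and 9.14 CPM (1.96), and Hist1h1c 113 and 270.3 CPM (1.26).

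With the same limit on the level, the 5 lowest ratios held 2 H1 genes. Hist1h1b had 253 CPM (249 to 257) in Nx10 and 25.8 (24.7 to 27.0) in Hx10, 0.102-fold (0.0974 to 0.107). Hist1h1a had 22.5 and 2.98 CPM, 0.133-fold (0.115 to 0.153). The H3 gene Hist1h3c had 11.6 and 1.56 CPM, 0.135-fold (0.110 to 0.164). The H2A gene Hist1h2af had 3.27 and 0.156 CPM, the latter from 12 UMIs, 0.0477-fold (0.0243 to 0.0852), and Hist1h2ak 2.83 and 0.573 CPM, 0.203-fold (0.142 to 0.283). In each of these 5 genes Hx10 was the lowest of the 4 libraries. Of the other highest genes of their types, Hist1h1e had 111 and 38.4 CPM (-1.53), Hist1h3e 13.9 and 6.47 CPM (-1.09) and Hist1h2ae 82.2 and 45.6 CPM (-0.85). Hist1h2ap had 172 and 145 CPM, a log2 ratio of -0.25 that was 0.26 with TMM scaling.

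The types therefore differed in which genes made up their sum. H4 genes summed to 106 CPM in Nx10 and 284 in Hx10 (log2 ratio 1.42), with 6 of 12 genes higher and 0 lower. Hist1h4i made up 21.7% of the H4 sum in Nx10 and 62.1% in Hx10, while all 12 encode the same protein. H2B genes summed to 119 and 396 CPM (1.73), of which Hist1h2bc made up 63.5% in Nx10 and 81.7% in Hx10. H1 genes summed to 526 and 372 CPM (-0.50, or 0.00 with TMM scaling), and Hist1h1b made up 48.0% of the H1 sum in Nx10 and 6.94% in Hx10. H2A genes summed to 321 and 319.6 CPM and H3 genes to 49.1 and 44.9 CPM. Their log2 ratios of 0.00 and -0.13 were 0.50 and 0.37 with TMM scaling, while 8 of 16 H2A genes and 8 of 12 H3 genes were lower.

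**Figure D2:**
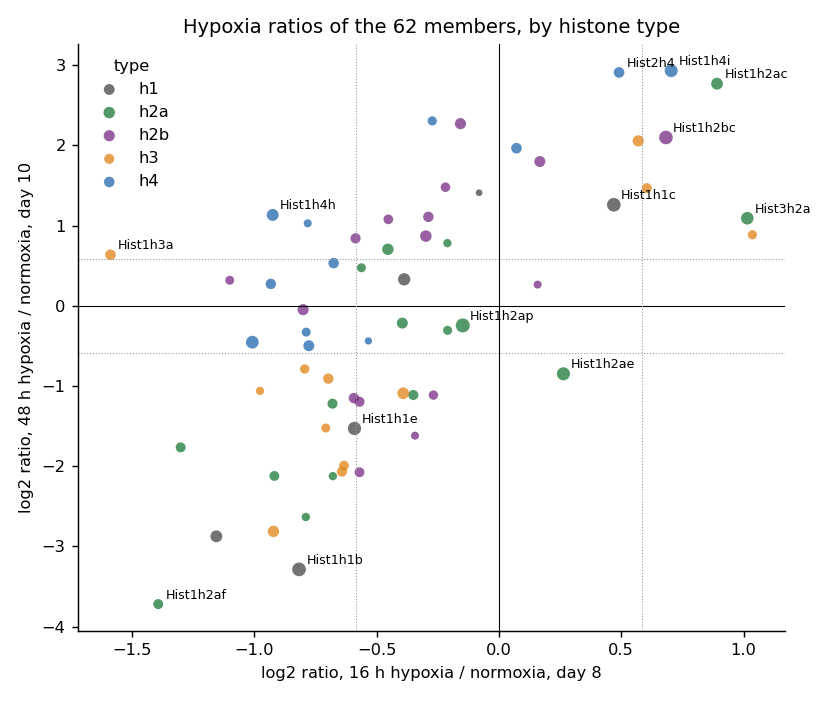
Log2 ratio of each of the 62 genes after 16 h of hypoxia on day 8 (x) and after 48 h on day 10 (y), coloured by histone type, with larger points for genes of higher mean CPM and dotted lines at 1.5-fold. Hist1h4i, Hist1h2ac and Hist1h2bc lie at the upper right and Hist1h1b and Hist1h2af at the lower left, while Hist1h4h and Hist1h3a are lower on day 8 and higher on day 10.

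Across the 2 ages 6 of the 62 genes were higher in both hypoxia comparisons, where 2.11% of all genes were, and 17 were lower in both, where 13.9% of all genes were. The 2 comparisons share no library. In 19 genes the 2 log2 ratios had opposite signs (32.5% of all genes), and in 4 of them both were past 1.5-fold (3.21% of all genes). Hist1h4h, the third highest H4 gene, had 16.3 CPM in Nx8, 8.52 in Hx8, 14.4 in Nx10 and 31.6 in Hx10. It was lowest after 16 h of hypoxia and highest after 48 h, at a different age.

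In normoxia alone, Nx10 set against Nx8, 3 of the 62 genes were higher, where 12.7% of all genes were, and 17 were lower, where 20.3% of all genes were (median -0.29). The counts were 5 and 11 with TMM scaling, and 5 and 13 with mitochondrial, ribosomal protein and Malat1 UMIs left out of the total. Among genes averaging 1 CPM or more, the highest ratios were those of Hist1h2ac (3.30 and 6.77 CPM, 1.02), Hist2h3c2 (0.79), Hist2h3c1 (0.65), Hist1h4i (0.54) and Hist1h3d (0.53). The lowest were those of Hist1h2ag (5.13 and 1.79 CPM, -1.47), Hist1h3a (-0.88), Hist1h4j (-0.85), Hist3h2ba (-0.83) and Hist1h2ap (301 and 172 CPM, -0.80). H2A genes summed to 438 and 321 CPM (-0.45) and H1 genes to 462 and 526 (0.19). From Nx8 to Nx10 macrophage markers went from 84.3 to 602 CPM (13 of 13 higher) and erythroid markers from 4588 to 570.2 CPM (11 of 12 lower), whose part in these ratios was not tested.

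The genes were next set apart by their annotated 3′ end. Of the 16 genes with a signal near the end, 13 were higher and 1 lower on day 10, with a median log2 ratio of 1.44. The exception was Hist1h2ae (-0.85), whose window is printed above. Of the 46 genes without such a signal 11 were higher and 23 lower (median -0.64). Of the 13 among them whose annotation ends at the stop codon 0 were higher and 10 lower (median -1.20). Over all 20353 genes 12.0% were higher and 46.2% lower (median -0.50), so the median of the 46 genes lay near that of all genes. Summed, the 16 genes had 243, 311, 284 and 660.2 CPM in Nx8, Hx8, Nx10 and Hx10, and the 46 genes 959, 727, 837 and 755 CPM, a day 10 log2 ratio of -0.15 that was 0.36 with TMM scaling. On day 8 the medians were 0.11 and -0.61, beside -0.22 over all genes. With TMM scaling the day 10 medians were 1.86 and -0.20, and 15 of 16 and 21 of 46 ratios were above 0.

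Over whole libraries, the difference was also seen among genes whose reads can better be told apart. With at least 50% of windows of their own, 14 genes with a signal had a median of 1.33 on day 10 and 20 genes without one had -0.48. It was seen within types too. The 6 H4 genes with a signal had a median of 2.13 and the 6 without one -0.38, and the 5 and 11 H2B genes 1.48 and -0.05. With TMM scaling the medians of the H4 and H2B genes without a signal were 0.09 and 0.45, and those with one 2.62 and 1.96. The division was not complete. Hist1h2bc, Hist1h2ac and Hist1h3d had log2 ratios of 2.10, 2.77 and 2.06 with no signal in the last 50 annotated bases. Their annotated transcripts run on for 745, 2061 and 802 bases after the coding part. The annotation used here may not be that of the authors.

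**Figure D3:**
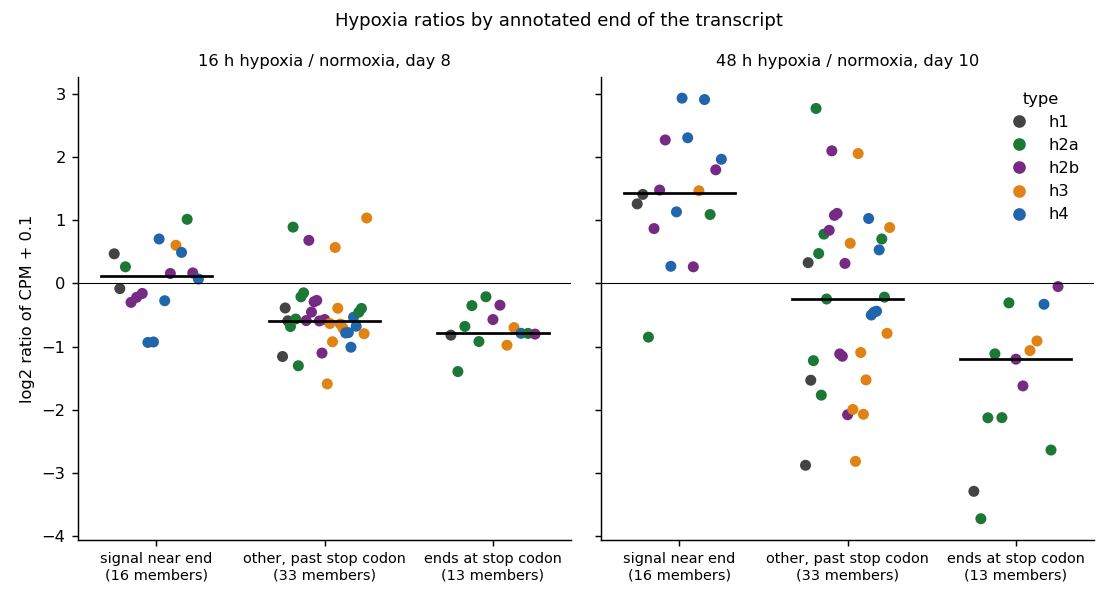
Log2 ratio of each gene (points, coloured by type) after 16 h of hypoxia on day 8 (left) and 48 h on day 10 (right), by annotated end: a poly(A) signal in the last 50 bases, no signal but an end past the stop codon, or an end at the stop codon. Black lines are medians, on day 10 1.44 for the 16 genes with a signal and -1.20 for the 13 that end at the stop codon.

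Levels were then read by S phase. Each cell was thinned to 5000 UMIs, shallower cells were left out (70 in Nx8, 166 in Hx8, 162 in Nx10 and 619 in Hx10), and cells were put in 3 strata by their UMIs from 42 S phase genes, none of them a cluster gene: 0 to 1 (low), 2 to 4 (middle) and 5 or more (high). The limits cut a continuous range, with 117, 453, 257 and 912 cells at the upper limit of the low stratum. The high stratum held 73.2% (exact binomial interval 71.6 to 74.7) of cells in Nx8, 38.1% (36.4 to 39.8) in Hx8, 48.8% (46.9 to 50.8) in Nx10 and 15.7% (14.6 to 16.9) in Hx10. The low stratum held 5.84%, 20.8%, 15.7% and 34.5%. Both hypoxic libraries thus had fewer cells of high S phase counts than the normoxic library of the same age.

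Past 1.5-fold, 43 of the 62 genes in Nx8, 43 in Hx8, 48 in Nx10 and 24 in Hx10 were higher in high than in low cells, where 28.9%, 20.2%, 21.1% and 16.8% of all genes were. The median log2 ratio was 1.25 in Nx8, 1.21 in Hx8, 1.66 in Nx10 and 0.28 in Hx10, beside 0.22, 0.12, 0.09 and 0.13 over all genes. Hist1h2ap had 45.3 CPM in low and 368 in high cells of Nx8 (3.02), and Hist1h1b 15.7 and 252 CPM (3.99). Hist1h1e had 65.1 and 131 CPM (1.01). Other genes were lower in high cells. Hist1h1c had 182 and 73.8 CPM (-1.30), Hist1h2bc 118 and 46.6 CPM (-1.34) and Hist1h4i 32.3 and 14.6 CPM (-1.14). The 16 genes with a signal near the end had a median of -0.01 and the other 46 of 1.56 in Nx8, and -0.03 and 1.60 in Hx8. In Nx10 these medians were 0.48 and 2.22, and in Hx10 -0.48 and 0.46. Hist1h2ae, the exception on day 10, had 15.2 and 83.3 CPM (2.45), far above the median of the genes with a signal. Ratios of low genes rest on few molecules, since 21 genes in Nx8 and 24 in Nx10 had at most 3 UMIs in low cells.

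**Figure D4:**
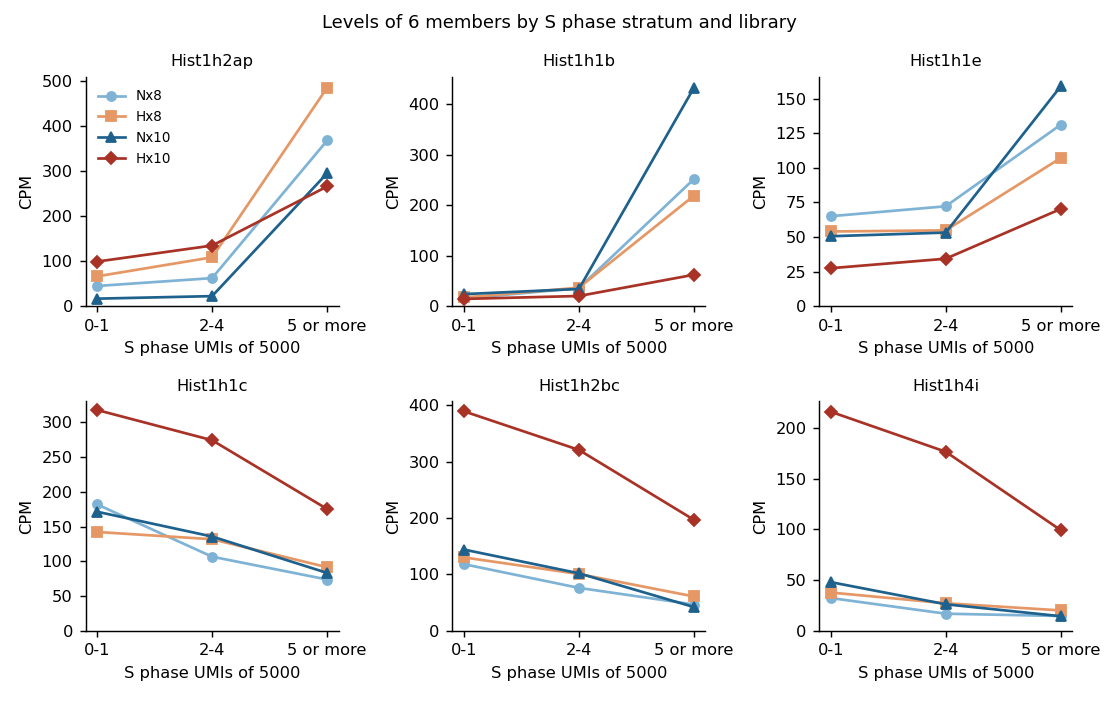
Level in CPM (linear axes from 0) of 6 genes in the low, middle and high S phase strata, 1 line per library. Hist1h2ap, Hist1h1b and Hist1h1e are highest in high cells of every library, Hist1h1c, Hist1h2bc and Hist1h4i are highest in low cells of every library, and for the latter 3 Hx10 lies above the other libraries in all 3 strata.

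Within strata the day 10 ratios were not those of the whole libraries. Among low cells 45 genes were higher and 5 lower in Hx10 than in Nx10 (median 1.18), where 15.3% and 45.0% of all genes were. Among middle cells 40 and 6 were (1.10), beside 14.2% and 45.4% of all genes. Among high cells 16 and 30 were (-0.46), beside 14.9% and 45.4%. The median of all genes was -0.43, -0.47 and -0.46 in low, middle and high cells, so the histone median lay above it in low and middle cells and beside it in high cells. Genes with a signal near the end had medians of 1.77, 1.64 and 1.20 in low, middle and high cells. Genes without one had 1.09, 0.88 and -0.84, so the medians had opposite signs in high cells only. Summed in low cells, the log2 ratios with and without a signal were 1.29 and 1.26. Hist1h4i was higher in all 3, with log2 ratios of 2.17, 2.75 and 2.78, as were Hist1h2bc (1.43, 1.65 and 2.22) and Hist1h2ac (2.77, 2.74 and 2.46). Hist1h2ap had 17.2 CPM in low cells of Nx10 and 99.4 in those of Hx10 (2.52), but 295 and 266 in high cells (-0.15). Hist1h1b was lower in each, by far the most in high cells (433 and 62.7 CPM, -2.78; -0.71 in low cells). Cells of a stratum were not alike between the libraries, also not in S phase counts, since the high stratum has no upper limit. High cells of Nx10 and Hx10 had a median of 9 and 6 S phase UMIs of 5000, and those of Nx8 and Hx8 of 10 and 8. They had a median of 16 and 10 G2 and M phase UMIs in Nx10 and Hx10. The part of this in the ratios was not tested. TMM scaling was not applied within strata, so signs of day 10 ratios near 0 are not settled there.

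On day 8 the medians within strata lay nearer 0 than that of the whole libraries. They were -0.21 among low, -0.03 among middle and -0.20 among high cells, beside -0.55 over all cells. The medians of all genes were -0.03, -0.19 and -0.17 in the strata and -0.22 over all cells. Hist1h1b had log2 ratios of 0.18, 0.03 and -0.20 in the 3 strata, beside -0.82 over all cells. Hist3h2a kept 0.64, 0.67 and 0.84, and Hist1h2ae was at 0.82, 0.99 and 0.76. Hist1h3a stayed lower (-2.20, -1.06 and -1.24), though its value in low cells of Hx8 was 0.9 CPM.

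Across the 62 genes, the log2 ratio of high to low cells in Nx8 had a Pearson correlation of -0.71 and a Spearman correlation of -0.72 with the day 10 hypoxia ratio, which comes from 2 other libraries. Over the 50 genes whose mean level reached 1 CPM these were -0.75 and -0.75. The ratio in Nx10 set against the day 8 hypoxia ratio gave -0.66 and -0.56. These are descriptions across genes, which share reads and cells and are not independent.

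**Figure D5:**
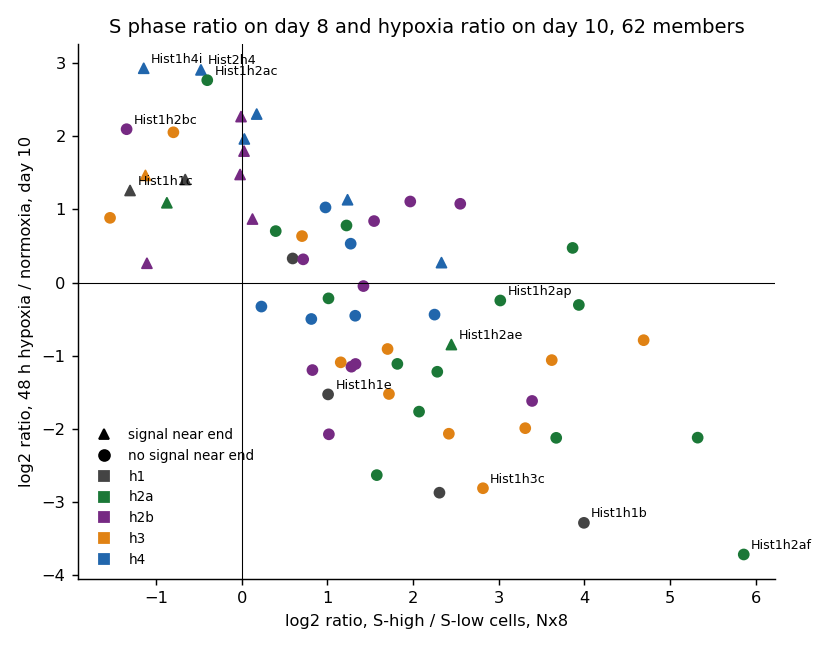
Log2 ratio of high to low S phase cells in Nx8 (x) and log2 ratio of Hx10 to Nx10 (y) for the 62 genes, coloured by type, with triangles for genes with a poly(A) signal near the end. Genes lower in S phase cells, such as Hist1h4i and Hist1h2bc, lie at the upper left and Hist1h1b at the lower right (Pearson correlation -0.71). In low cells of Nx8, 9 of the 62 genes had 0 UMIs, Hist1h2af among them. Their x values thus depend on the added 0.1 CPM.

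Cells were clustered without the histone and cell cycle genes, and clusters were named by their markers. Mesenchymal-like cells made up most of each library (2687, 2889, 2391 and 4338 cells), in clusters that differed between libraries: 2, 4, 7 and 13 held most of them in Nx8, 0 and 4 in Hx8, 5, 10 and 12 in Nx10, and 1, 3, 6 and 8 in Hx10. Within them 25 genes were higher and 24 lower in Hx10 than in Nx10 (median -0.11), where 12.9% and 44.7% of all genes were. In Hx8 against Nx8 10 were higher and 26 lower (-0.51), where 5.64% and 24.9% of all genes were. Genes with and without a signal near the end had medians of 1.42 and -0.63 on day 10. Since these cells gave most UMIs of each library, such values had to lie near those of the whole libraries.

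Smaller classes gave levels with few cells each. In endoderm-like cells (66 in Nx10 and 56 in Hx10) Hist1h4i had 8.64 CPM (4.47 to 15.1) in Nx10 and 119 (96.0 to 145) in Hx10, Hist1h2bc 31.7 and 224 CPM, and Hist1h1b 112 and 22.5 CPM. In macrophage-like cells (190 and 118) Hist1h4i had 48.6 and 92.5 CPM and Hist1h1b 304 and 69.4. The directions in these 2 classes were those of the mesenchymal-like cells, at 20.6 and 179 CPM for Hist1h4i. On day 8 the endoderm-like cells (242 in Nx8 and 194 in Hx8) went the other way, with 35.5 and 29.4 CPM of Hist1h4i and 129 and 65.0 of Hist1h2bc. Mesenchymal-like cells had 12.3 and 22.7 CPM of Hist1h4i then, and macrophage-like cells (52 and 38) 23.4 and 145. This difference between classes was not tested. Megakaryocyte-like cells, few as they were (35 in Nx8, with a median of 16585 UMIs), had the highest H1 level of the named classes in Nx8 at 1221 CPM, of which Hist1h1c gave 773 (708 to 842), beside 68.8 CPM of Hist1h1c in mesenchymal-like cells. In the same cells Hist1h2bc was at 227 CPM and Hist1h4i at 143, beside 44.1 and 12.3 in mesenchymal-like cells. All 3 genes were thus higher in megakaryocyte-like than in mesenchymal-like cells in Nx8. On day 10 the megakaryocyte-like cells (11 in Nx10 and 43 in Hx10) went the other way from mesenchymal-like cells in summed H4 and H2B genes. Their H4 genes summed to 1058 and 414 CPM, and their H2B genes to 1269 and 833. Mesenchymal-like cells had 102 and 288 CPM of H4, and 116 and 401 of H2B.

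Several H2A and H2B genes lie head to head and share the stretch between their starts. Within the 62 genes there were 10 such pairs, with 175 to 301 bases between them. On day 8 both genes of a pair had log2 ratios of the same sign in 8 of 10 pairs. Since 49 of the 62 genes were below 0 then, a shared sign was common among any 2 of them. On day 10 both genes of a pair had the same sign in 5 of 10, or in 8 of 10 with TMM scaling, which raises every day 10 ratio. Whether pairs were more alike than other genes was not tested. Hist1h2ac and Hist1h2bc had 2.77 and 2.10 on day 10. Hist1h2ap and Hist1h2br had -0.25 and 2.27, or 0.26 and 2.77 with TMM scaling. Hist1h2ae and Hist1h2bg had -0.85 and 1.11, and Hist1h2ah and Hist1h2bk -2.12 and 0.32, and these 2 pairs lay on opposite sides of 0 under both scalings.

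The RefSeq table of promoters (GRCm38.p6, 250 bases before to 50 after the start) had an entry for 57 of the 62 genes. Motifs were searched on both strands. CCAAT was present in 49 of 57, beside 37.9% of all 27025 promoters, and in every H1, H2A, H2B and H3 gene with an entry but in 3 of 11 H4 genes. The TATA motif TATAAA was present in 32 of 57, beside 14.2% of all. The octamer known from H2B promoters, ATTTGCAT, was present in 6 of 16 H2A and 6 of 14 H2B genes and no gene of the other types, beside 1.75% of all promoters. None of these motifs holds another. The 250 bases upstream of the RefSeq start are printed for 3 genes, with these motifs in capitals on either strand. The stretch of Hist1h2ac (chr13:23683960-23684209, minus strand) leads to Hist1h2bc, and this pair was high in Hx10. Hist1h2ap (chr13:21833476-21833725, minus strand) had a day 10 ratio far below that of Hist1h2br, though both have few windows of their own. Hist1h4i (chr13:22041363-22041612, minus strand) has no CCAAT there. RefSeq and GENCODE starts differ for Hist1h2ap, so its printed stretch reaches into the GENCODE span given above.

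Hist1h2ac: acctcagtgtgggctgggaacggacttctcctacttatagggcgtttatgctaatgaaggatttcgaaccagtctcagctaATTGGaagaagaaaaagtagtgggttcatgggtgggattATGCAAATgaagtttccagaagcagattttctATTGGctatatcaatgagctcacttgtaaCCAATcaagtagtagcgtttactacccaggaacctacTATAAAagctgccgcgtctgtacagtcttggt
Hist1h2ap: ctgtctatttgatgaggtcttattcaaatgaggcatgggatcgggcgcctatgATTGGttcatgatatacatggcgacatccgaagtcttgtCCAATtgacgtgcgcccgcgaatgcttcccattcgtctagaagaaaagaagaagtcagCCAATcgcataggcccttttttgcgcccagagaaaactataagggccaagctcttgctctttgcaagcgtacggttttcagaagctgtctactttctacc
Hist1h4i: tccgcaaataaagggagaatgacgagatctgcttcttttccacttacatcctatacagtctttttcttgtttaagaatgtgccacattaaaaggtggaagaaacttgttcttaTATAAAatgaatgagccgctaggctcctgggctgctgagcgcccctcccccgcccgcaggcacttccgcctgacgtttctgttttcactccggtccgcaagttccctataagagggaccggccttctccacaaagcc

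Other genes of histone supply were read from lists. Beside their counts, 5.52% of all 20353 genes were higher and 24.5% lower on day 8, and 12.0% and 46.2% on day 10. These shares are without TMM scaling. The replication-independent variants, which are polyadenylated and made outside S phase too, were lower after 48 h in 9 of 11 and higher in 0 (median -1.05). With TMM scaling 5 were lower and 2, H2afj and H1f0, higher (-0.54). They were lower in 2 and higher in 0 after 16 h (-0.40). H2afz, the gene of H2A.Z, had 1032 CPM in Nx8, 576 in Hx8, 782 in Nx10 and 349.6 in Hx10, and H2afx, the gene of the damage-marking variant, 215, 156, 138 and 59.5. The H3.3 genes H3f3a and H3f3b had log2 ratios of -1.05 and -0.67 on day 10. The macroH2A genes H2afy and H2afy2 had -1.73 and -1.41, and Cenpa, which marks centromeres, -1.17. The linker variant of resting cells H1f0 had 112, 139, 148 and 177 CPM, so both hypoxic libraries were above the normoxic one of their age, by less than 1.5-fold. The H2A.J gene H2afj, named after its values were seen, had 126 CPM in Nx10 and 186 in Hx10 (0.56, or 1.06 with TMM scaling).

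Of 26 measured genes for processing and decay of histone RNA, 1 was higher and 11 lower on day 10 (median -0.47), or 6 and 4 with TMM scaling (0.02). These medians lay near those of all genes, -0.50 and -0.07. On day 8 the counts were 0 and 4 (-0.35), or 2 and 0 with TMM scaling. Slbp had 78.0, 49.2, 58.4 and 33.7 CPM, with log2 ratios of -0.66 and -0.79. The U7 particle gene Lsm11 had 17.4 CPM in Nx10 and 32.2 in Hx10 (0.89). The cleavage stimulation factor genes Cstf2 and Cstf3 had -1.44 and -1.62 on day 10, and the cap-binding gene Ncbp2 -1.32. Of 28 chaperone genes 3 were higher and 17 lower on day 10 (-0.71), or 3 and 10 with TMM scaling. The chromatin assembly factor genes Chaf1b and Chaf1a had -3.09 and -1.88, the H3 and H4 chaperone genes Asf1b and Nasp -2.33 and -1.59.

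Of 13 genes for histone gene transcription and cyclin E with its kinase, 3 were higher and 6 lower on day 10 (-0.43), or 6 and 3 with TMM scaling (0.07). Here too the medians lay near those of all genes, -0.50 and -0.07. Npat, the coactivator of histone genes that cyclin E and Cdk2 act on, had 42.9, 35.2, 39.2 and 49.0 CPM, within 1.5-fold on both days. Ccne1 had -1.27 on day 8 and -1.14 on day 10, E2f1 -1.89 on day 10 and Yy1 1.11. Of 42 S phase genes 0 were higher and 38 lower on day 10 (-2.09), and 0 and 36 on day 8 (-0.94). With TMM scaling the counts were 0 and 33 on day 10 and 0 and 27 on day 8. Rrm2, a subunit of the enzyme that makes deoxynucleotides, had 56.4, 18.5, 40.7 and 2.67 CPM, and the polymerase clamp gene Pcna 96.1, 42.6, 65.6 and 17.8. Of 52 G2 and M phase genes 0 were higher and 43 lower on day 10 (-1.39), or 3 and 33 with TMM scaling. The proliferation marker Mki67 had 131, 87.0, 129 and 13.3 CPM. Slbp, Nasp and Chaf1b also stand on the S phase list. On day 10 the median ratio of the 46 histone genes without a signal near the end (-0.64) lay above that of the S phase genes.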

How the data were processed

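The deposited matrices give unnormalized UMI counts for each gene in each cell barcode. The authors made them with Cell Ranger 7.1.0 on mm10, per the submitters' processing notes. How introns and reads with several matches were treated is not stated there or in the labels. The protocol was the 10x 3' kit, per the labels' protocols.

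Cells needed 500 or more genes and no more than 15% mitochondrial UMIs, and doublets were not removed. Counts were summed per library and scaled to CPM (Python 3.11.15, SciPy 1.17.1). Levels carry exact Poisson intervals and ratios exact conditional binomial ones, at 95%, of the plain ratio. With 1 library per group no test was made. TMM factors came from edgeR 4.0.16. Cells were clustered on 2000 variable genes with 30 components, 15 neighbours and resolution 1 (scanpy 1.11.5, leidenalg 0.10.2). Scripts were tested on simulated data. A range of 62614780 to 84938732 UMIs per library sets the precision.

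Sequences came from GENCODE M21 and RefSeq. The members and lists were chosen with earlier results of these data known. Named members were the 3 of highest mean CPM per type and, for genes averaging 1 CPM or more, the 5 at either end of each comparison. From each list, genes were named among the 4 of largest ratio per comparison (5 CPM or more) and 10 set genes. Hist4h4, Lsm11, the genes of the printed pairs and those in the account of annotated ends were named after their values were seen. Alternatives were TMM, other totals, pseudocounts, filters, thinning, other strata and another resolution. The restriction to genes with at least 50% of windows of their own was added after seeing the data.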

Additional observations from a re-analysis of the deposited data

Results flagged for a closer look

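Hypoxia went with opposite directions past 1.5-fold at the 2 ages in 3 genes averaging 1 CPM or more. The difference between the ages, as the day 10 minus the day 8 log2 ratio, was 2.06 in Hist1h4h, 2.22 in Hist1h3a and 1.43 in Hist1h2bb, each lower on day 8 and higher on day 10. Hist1h2bb passed 1.5-fold on day 8 only narrowly (-0.59) and did not with TMM scaling (-0.36). The difference was not tested, since each group has 1 library, and age and the length of hypoxia differ together.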

How the results depend on the processing

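No paired analysis was possible because each group has 1 library. On day 8, 28 lower genes became 14 with TMM scaling, 13 with a pseudocount of 1 CPM and 13 among genes with at least 50% of windows of their own. That last restriction, which tests fewer genes, left 10 of 24 lower genes on day 10. The age comparison (median -0.29, 3 higher and 17 lower) became -0.17, 5 and 11 with TMM scaling, 5 higher without mitochondrial, ribosomal protein and Malat1 UMIs, 1 and 6 with a pseudocount of 1 CPM, 1 and 6 with at least 50% of own windows, and a median of -0.45 with thinned cells. With strata at 0, 1 to 5 and 6 or more S phase UMIs the median of high against low cells was 2.03 in Nx10 and 0.48 in Hx10, beside 1.66 and 0.28. The cause was not tested. Under the alternatives 136 of 486 values of named genes and 41 of 90 of type sums moved out of their counting interval. Of these moves 70 came with TMM scaling. No value past 1.5-fold in the main setting turned its direction, while some smaller ones changed sign. With TMM the all-gene median went from -0.22 to -0.01 on day 8, from -0.50 to -0.07 on day 10 and from -0.12 to -0.0047 for age. Counting error limits genes of few UMIs, and no value measures differences between cultures.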
